A study of Mus musculus with 4 samples.

Results

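The transforming growth factor beta (TGF-beta) superfamily genes on the array were examined: the TGF-beta, bone morphogenetic protein (BMP), growth differentiation factor (GDF) and activin ligands, their receptors, and the SMAD proteins that carry their signals to the nucleus. They were taken by gene symbol from the platform's annotation (symbols starting with Bmp, Gdf, Tgfb or Smad and a number, or with Bmpr, Tgfbr, Inhb or Acvr, without Gdf15). This gave 52 of 26423 probes and 49 of 17734 named genes, all with an intensity above 0 on every array. The samples were 3T3-L1 cells, mouse preadipocytes grown as a line, which an inducing mixture turns into adipocytes. The 2 berberine samples received 13.47 µM berberine, a plant alkaloid, together with the adipogenic induction mixture, and the 2 control samples are labelled as given the mixture alone. Sample titles and source names separate the groups, whereas the treatment text, identical for all 4 samples, names berberine even where the title says control. The mixture, shared by both groups, held 0.5 mM isobutylmethylxanthine, which raises cyclic AMP, 1 µM dexamethasone, a glucocorticoid, and 1 µg/ml insulin, and all cells were collected after 48 hours. The question put by the design is what berberine does to expression while the cells are being induced. Whether the 2 samples of a group came from separate cultures is not stated in the labels, so the spread behind the p-values is that between arrays and may be technical.

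Ligands of this superfamily are secreted dimers that bring together a type II and a type I receptor kinase. The type I receptor phosphorylates receptor-regulated SMADs: SMAD2 and SMAD3 after TGF-beta or activin, SMAD1, SMAD5 and SMAD9 after BMPs. These join SMAD4 to regulate genes, while SMAD6 and SMAD7 are inhibitory SMADs that act against receptor signalling. In preadipocytes, TGF-beta is known to inhibit adipogenesis through SMAD3, whereas BMP2 and BMP4 can promote commitment to the fat lineage.

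RNA was hybridised to 1-colour arrays, 1 per sample. Levels below are log2 intensities after quantile normalization, changes are berberine minus control on that scale with their standard error (SE), and adjusted p-values come from 1 limma fit across 26408 probes, with 0.05 as the threshold. Median deposited intensities were 237 and 280 on the berberine arrays, against 423 and 350 on the control arrays. Over all probes the median log2 change was 0.17 with quantile normalization. It was -0.05 with no scaling, 0.52 with arrays centred on their medians and 0.26 with arrays scaled on the 75th percentile, so small changes near these values carry no settled direction. Probes under 6.58 on log2, the 25th percentile of a normalized array, were taken as dim; this floor gives at most a bound on a fold. Of the cell type markers, 6 of 10 adipocyte markers were lower with berberine and 1 passed as higher, Pparg, which was under the floor in both groups. Their mean linear intensity was 3116 and 3428 on the berberine arrays, against 58706 and 56327 on the control arrays. Of 7 preadipocyte and fibroblast markers, all above the floor in both groups, Cd34, Col1a1, Col1a2 and Pdgfrb were higher, Dlk1 and Pdgfra lower and Vim neither. Their mean linear intensity was 38728 and 39106 with berberine, against 41270 and 42661 in control. Macrophage markers had 1 of 5 higher and 1 lower and averaged 231.4 and 215.4 with berberine, against 206.4 and 241.8 in control. Higher were also 2 of 4 endothelial markers (list means 309 and 289.2 with berberine, against 198.1 and 212.3 in control). For 1 of these 2, Tek, the control mean was under the floor. Of 4 listed muscle markers 2 were measured, and these 2 were higher (1235 and 1195, against 736.7 and 594.6). Among all named genes 30% passed as higher and 18.2% as lower, so counts in such short lists say little about cell types. The part of these marker changes in the results below was not tested, and fewer cells of a type cannot be told apart from less RNA per cell.

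Berberine and control samples differed at 23 of the 49 superfamily genes, 15 higher and 8 lower, with each gene counted by its brightest probe. Of all named genes 48.2% passed, 30% higher and 18.2% lower, against 30.6% and 16.3% of the superfamily, so the counts lay near the background. By probe, 15 of 52 were higher and 9 lower, against 27.1% and 17.7% of all probes. At least 2-fold changes were met by 9 higher and 8 lower superfamily genes, 18.4% and 16.3% of them, against 12.9% and 11.5% of all named genes. The median change was 0.22 for the superfamily and 0.20 for all named genes. In the deposited values without scaling, 8 superfamily genes were higher and 10 lower, so lower genes made up 55.6% of the calls in place of 34.8%. Rises were also fewer without berberine replicate 1 (4) or berberine replicate 2 (5), while falls numbered 8 and 7. For 46 of the 49 genes the value rests on a single probe.

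**Figure D1:**
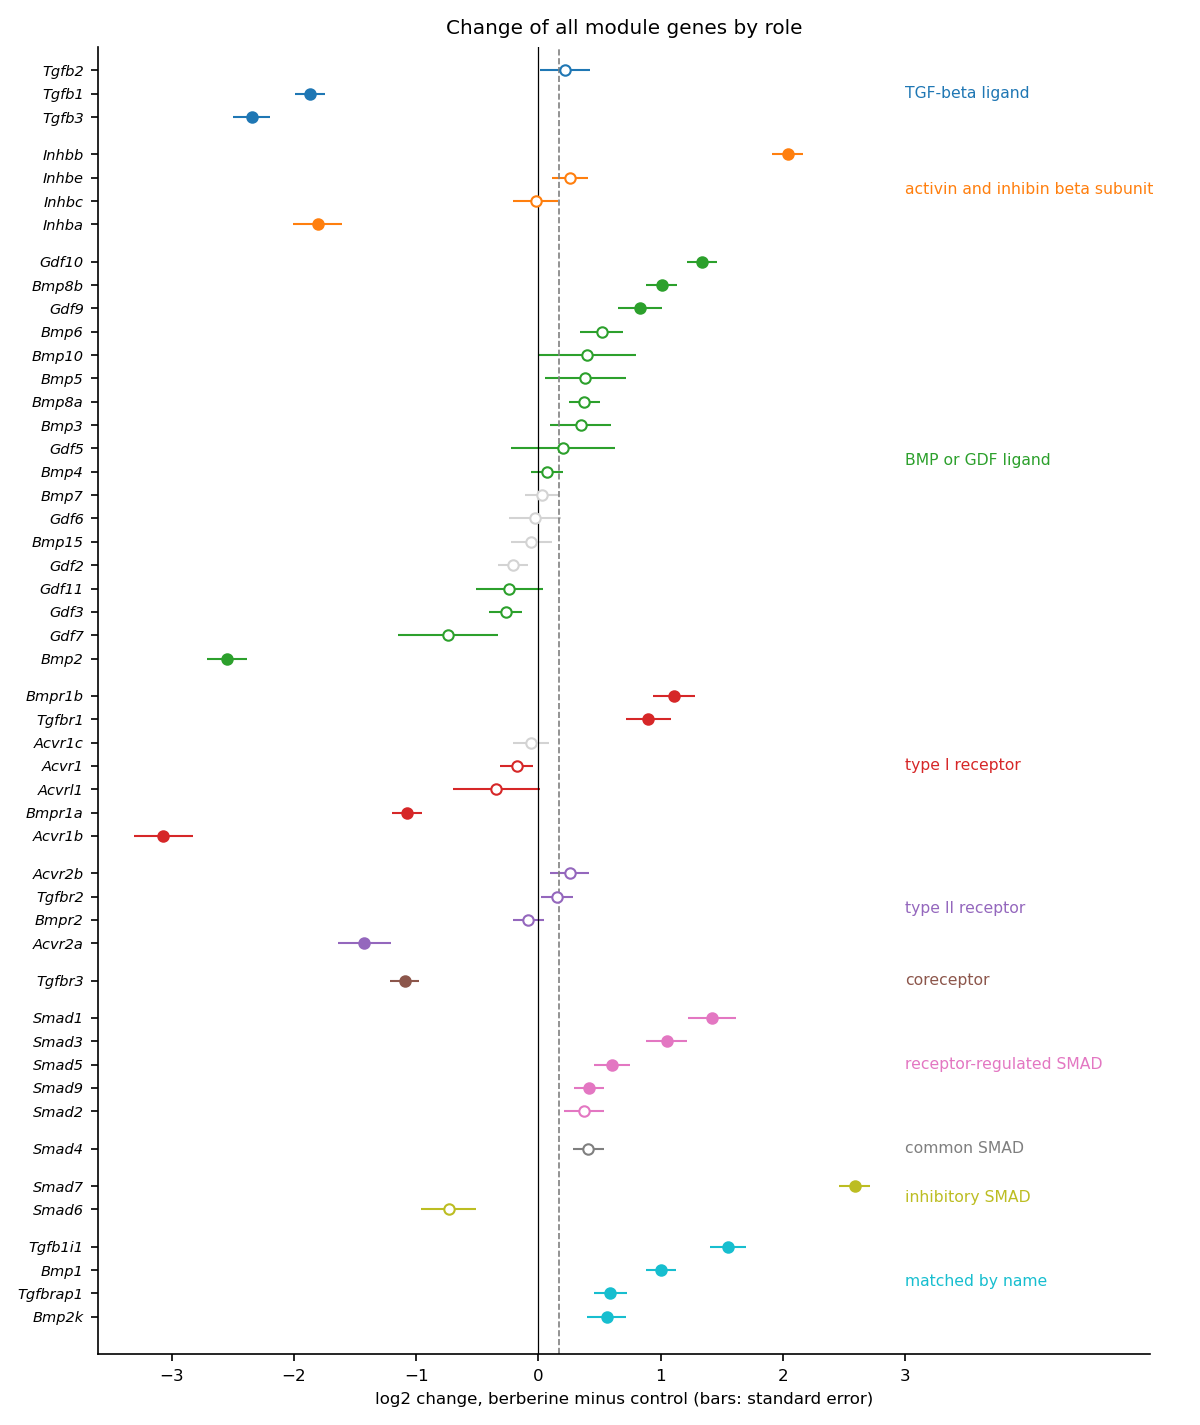
Log2 change (berberine minus control, bars are the standard error) of the 49 superfamily genes by role. Filled points passed an adjusted p of 0.05, grey points were under the floor in both groups, the dashed line is the median change of all probes (0.17); Smad7 (2.59) and Acvr1b (-3.07) mark the extremes.

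The TGF-beta ligands were lower with berberine at 2 of 3 genes (66.7%, against 18.2% of all named genes). Tgfb1, which encodes the founding member of the family, read 8.78 and 8.79 on the berberine arrays, against 10.59 and 10.72 on the control arrays. The groups did not overlap, as at 71.4% of superfamily genes and 77.5% of all named genes, and Tgfb1 fell by a factor of 3.66 (log2 change -1.87, SE 0.12, adjusted p = 0.000563). Tgfb3, an isoform that binds the same receptors, read 8.90 and 8.94 with berberine, against 11.11 and 11.42 in control. It fell 5.08-fold (log2 change -2.35, SE 0.15, adjusted p = 0.000529). Both calls passed under each of 12 other settings, at adjusted p up to 0.0231 and 0.0228.

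Tgfb2 gave no settled result, because its probes disagreed. The brighter probe read 11.57 and 11.35 with berberine, against 11.01 and 11.47 in control, and did not pass (log2 change 0.22, SE 0.20, adjusted p = 0.424). The dimmer probe read 8.56 and 8.63 with berberine, against 10.00 and 10.35 in control, and fell 2.99-fold (adjusted p = 0.00194). The groups overlapped at the brighter probe and lay apart at the dimmer one. Averaging both probes gave a log2 change of -0.68 (adjusted p = 0.0316, with 0.0316 to 0.955 over the settings tried). The brighter probe turned to -0.04 in the deposited values.

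The activin beta subunits Inhba and Inhbb moved in opposite directions. These encode the beta A and beta B chains, whose dimers are the activins and which pair with the alpha chain in the inhibins. Inhba read 7.03 and 7.39 with berberine, against 9.18 and 8.85 in control, and fell 3.50-fold (log2 change -1.81, SE 0.20, adjusted p = 0.00226). Inhbb read 11.20 and 11.22 with berberine, against 9.09 and 9.24 in control, and rose 4.11-fold (log2 change 2.04, SE 0.13, adjusted p = 0.000471). Each passed under all 12 other settings, with log2 changes of -2.34 to -1.62 for Inhba and 1.57 to 2.14 for Inhbb. Inhbc and Inhbe, subunits known mainly from liver, had changes of -0.02 (adjusted p = 0.926) and 0.26 (adjusted p = 0.213). Inha, the inhibin alpha chain, read 9.36 and 9.25 with berberine, against 8.73 and 8.84 in control, and rose 1.43-fold (adjusted p = 0.0273). It was picked after its value was seen, because the alpha chain pairs with both beta chains.

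The promoters of the opposed subunit genes are shown because they differ in base composition. Each line holds the 250 bases before the annotated start, 5′ to 3′, from RefSeq on GRCm38.p6. Inhba lies at chr13:16011601-16011850 (+ strand) and has a GC content of 43.2% and 3 CpG dinucleotides. Inhbb lies at chr1:119422249-119422498 (- strand) and has 68.0% and 21 CpG dinucleotides. This pair does not stand for the superfamily. The 5 promoters of lower genes had a median GC content of 78.8% and 36 CpG dinucleotides. The 17 promoters of higher genes had 68.0% and 22. A link of base composition with direction was not tested.
Inhba: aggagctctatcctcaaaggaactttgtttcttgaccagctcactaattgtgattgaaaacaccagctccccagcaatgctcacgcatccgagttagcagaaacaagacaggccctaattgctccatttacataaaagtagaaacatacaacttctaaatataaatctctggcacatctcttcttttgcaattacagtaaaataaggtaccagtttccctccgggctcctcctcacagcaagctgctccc
Inhbb: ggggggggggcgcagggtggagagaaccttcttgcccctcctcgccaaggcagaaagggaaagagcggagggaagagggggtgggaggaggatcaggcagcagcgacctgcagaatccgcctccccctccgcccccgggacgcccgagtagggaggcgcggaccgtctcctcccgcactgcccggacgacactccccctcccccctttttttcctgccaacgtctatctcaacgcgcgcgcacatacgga
Neither holds CAGAC, the SMAD-box letters bound by SMAD3 and SMAD4, nor the E-box CACGTG, searched on both strands, so no base is in capitals. Among all 32851 promoters of the table the median GC content was 52.4% with 6 CpG dinucleotides, and 42.2% held CAGAC and 6.0% CACGTG. That these letters are missing says nothing about binding of the factors.

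Among BMP and GDF ligands, Bmp2 was lower, and Bmp8b, Gdf9 and Gdf10 were higher. Of these 18 ligands 16.7% were higher and 5.56% lower, against 30% and 18.2% of all named genes. Bmp2, an inducer of bone and of fat commitment, read 9.99 and 9.95 with berberine, against 12.34 and 12.69 in control. The fall was 5.85-fold (log2 change -2.55, SE 0.16, adjusted p = 0.000502). The call held under all 12 other settings, at adjusted p up to 0.022. Bmp4, its close relative, read 12.25 and 12.11 with berberine, against 12.05 and 12.17 in control, and did not pass (log2 change 0.07, SE 0.13, adjusted p = 0.703). After centring on the median its change was 0.60 and passed (adjusted p = 0.0285; 0.0285 to 0.999 over the settings tried). The groups lay apart for Bmp2 and overlapped for Bmp4. Whether the changes of the 2 genes differ was not tested.

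Gdf10, also known as BMP3b, read 9.83 and 9.76 with berberine, against 8.41 and 8.51 in control, and rose 2.53-fold (log2 change 1.34, SE 0.12, adjusted p = 0.0014). Its call was lost in the deposited values (adjusted p = 0.0563, the highest of the 12 settings), where its change was 0.75. Bmp8b, a BMP known from brown fat thermogenesis, read 8.54 and 8.41, against 7.5 and 7.43 in control, and rose 2.01-fold (adjusted p = 0.00342). Gdf9, known as an oocyte factor, rose at least 1.73-fold (adjusted p = 0.0183), with the control group under the floor. The Bmp8b and Gdf9 calls were both lost in the deposited values and without berberine replicate 1 (highest adjusted p = 0.199 and 0.193), and Gdf9 also after scaling on the 75th percentile and without berberine replicate 2 or control replicate 1.

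The other 14 BMP and GDF ligands did not pass, with changes of -0.74 to 0.52. Bmp7, Bmp15, Gdf2 and Gdf6 were dim in both groups, and their probes give no change. The largest uncalled change was that of Gdf7 at -0.74 (SE 0.41, adjusted p = 0.202), where the berberine arrays read 6.78 and 5.56, against 6.97 and 6.86 in control. The berberine mean was under the floor, so this value is no measured size, and Gdf7 passed with the replicate block (adjusted p = 0.0148) and without berberine replicate 1 (-1.35, 0.0341). Bmp6, an activator of SMAD1 and SMAD5, read 8.33 and 7.94 with berberine, against 7.55 and 7.68 in control (log2 change 0.52, adjusted p = 0.067, with 0.0395 to 0.979 over the settings tried). Bmp8a had a change of 0.38 (adjusted p = 0.0653). Gdf3 had a change of -0.27 (adjusted p = 0.163) and passed in the deposited values (-0.87, 0.0374). Bmp3, Bmp5 and Bmp10 had changes of 0.35, 0.38 and 0.40 and Gdf11 one of -0.24, with adjusted p of 0.314, 0.388, 0.464 and 0.513, and the control mean of Bmp3 was under the floor. Gdf5, a cartilage growth factor, differed more between the control arrays, at 10.45 and 9.18, than between the groups, with berberine arrays at 10.02 and 10.01. Its change was 0.20 (adjusted p = 0.727), but 0.84 and past the threshold without control replicate 1 (0.0203) and -0.44 without control replicate 2 (0.0537).

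**Figure D2:**
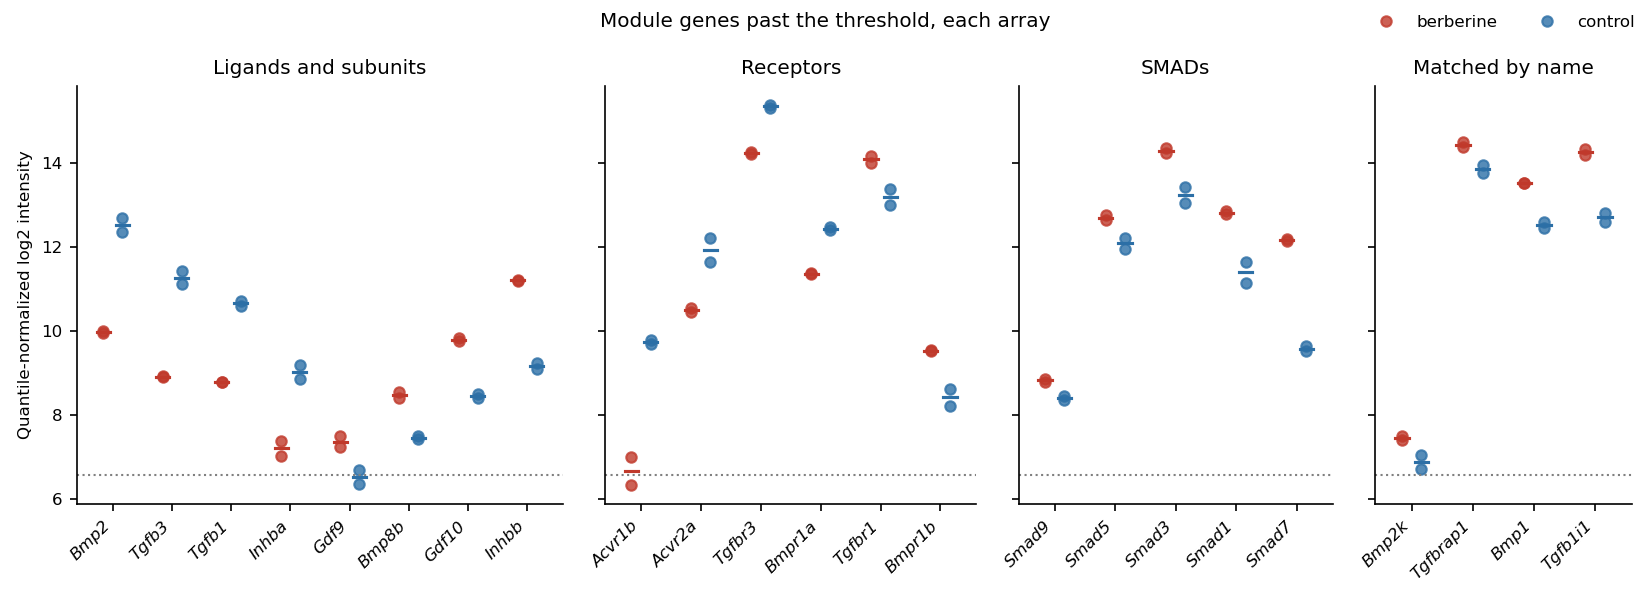
Quantile-normalized log2 intensity on each array of the 23 superfamily genes past the threshold, berberine (red) left of control (blue), with horizontal marks at group means and the floor of 6.58 dotted. The berberine and control points of each gene lie apart, as they do at 77.5% of all named genes, and these genes were chosen by the threshold on the same values. Berberine points often coincide, as for Tgfb1 at 8.78 and 8.79.

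Receptors passed at 6 of 12 genes, 50% against 48.2% of all named genes, with 4 lower and 2 higher. The largest change was at Acvr1b, the type I receptor ALK4 for activins, which read 6.35 and 7.0 with berberine, against 9.79 and 9.70 in control. The fall was 8.39-fold (log2 change -3.07, SE 0.24, adjusted p = 0.000868), with 1 of the berberine arrays under the floor, and passed under all 12 other settings. Acvr2a, a type II receptor for activins, read 10.55 and 10.46 with berberine, against 12.20 and 11.65 in control, and fell 2.68-fold (log2 change -1.42, SE 0.21, adjusted p = 0.00597). This call was lost without berberine replicate 1 (adjusted p = 0.0688) or berberine replicate 2 (0.0735), the highest of its 12 settings. The other activin type II receptor, Acvr2b, did not pass, at 11.26 and 11.07 with berberine, against 10.77 and 11.05 in control (log2 change 0.26, adjusted p = 0.251). Acvr1c, the type I receptor ALK7, was under the floor in both groups.

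The promoters of the activin receptor genes that fell are shown beside those of the subunits. Capitals mark the E-box CACGTG and the SMAD-box CAGAC or its reverse complement GTCTG. Acvr1b lies at chr15:101173822-101174071 (+ strand), with a GC content of 78.8% and 42 CpG dinucleotides, and Acvr2a at chr2:48813859-48814108 (+ strand), with 82.0% and 49.
Acvr1b: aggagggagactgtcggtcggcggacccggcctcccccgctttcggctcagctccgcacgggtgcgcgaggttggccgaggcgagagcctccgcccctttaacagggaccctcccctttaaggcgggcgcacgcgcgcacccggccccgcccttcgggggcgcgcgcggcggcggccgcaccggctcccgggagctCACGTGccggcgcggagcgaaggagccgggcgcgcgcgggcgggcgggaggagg
Acvr2a: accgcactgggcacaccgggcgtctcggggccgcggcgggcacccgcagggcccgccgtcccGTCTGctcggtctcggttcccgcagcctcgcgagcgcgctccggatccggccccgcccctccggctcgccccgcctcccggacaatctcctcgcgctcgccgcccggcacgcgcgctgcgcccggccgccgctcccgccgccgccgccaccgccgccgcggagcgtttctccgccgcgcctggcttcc
The Acvr1b window holds 1 CACGTG and the Acvr2a window 1 CAGAC. In 41 promoters listed for 34 superfamily genes, 39.0% held CAGAC and 9.8% CACGTG, against 42.2% and 6.0% of all promoters. A match of these letters is a description of the sequence, not a binding site.

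BMP type I receptors moved apart. Bmpr1a, or ALK3, read 11.35 and 11.37 with berberine, against 12.47 and 12.39 in control, and fell 2.11-fold (log2 change -1.08, SE 0.12, adjusted p = 0.00241). It passed under all 12 other settings, at adjusted p up to 0.0464, and its change was -0.62 after centring on the median. Bmpr1b, or ALK6, read 9.54 and 9.53 with berberine, against 8.23 and 8.62 in control, and rose 2.16-fold (adjusted p = 0.0066). That call was lost in the deposited values (log2 change 0.52, adjusted p = 0.16) and without berberine replicate 1 (0.0766) or 2 (0.0737). Acvr1, or ALK2, read 13.76 and 13.61 with berberine, against 13.80 and 13.92 in control, a change of -0.18 short of the threshold (adjusted p = 0.33) and was 0.55 after centring, where it passed (0.0399). Acvrl1, or ALK1, known from endothelium, had a change of -0.34 (SE 0.36, adjusted p = 0.472) and control arrays 1 log2 unit apart, at 11.47 and 12.51; without control replicate 1 the change was -0.87 and passed (0.0281). Bmpr2, the BMP type II receptor, read 10.00 and 9.95, against 10.12 and 10.00 in control (adjusted p = 0.627).

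Of the TGF-beta receptors, 1 was higher, 1 lower and 1 did not pass. Tgfbr1, the type I receptor ALK5, read 14.17 and 13.99 with berberine, against 13.38 and 12.98 in control, and rose 1.86-fold (log2 change 0.90, SE 0.18, adjusted p = 0.0151). Tgfbr2, the type II receptor, read 14.46 and 14.65 with berberine, against 14.37 and 14.44 in control, and did not pass (log2 change 0.15, adjusted p = 0.401). It passed after centring (0.94, adjusted p = 0.00625) and after scaling on the 75th percentile (0.68, 0.0387), with 0.00625 to 0.826 over the settings tried. Tgfbr3, the coreceptor betaglycan that presents TGF-beta2 and binds inhibins, read 14.27 and 14.22 with berberine, against 15.30 and 15.37 in control. It fell 2.14-fold (log2 change -1.09, SE 0.12, adjusted p = 0.00232). The Tgfbr1 call was lost without berberine replicate 1 (0.127) or 2 (0.0876), and its change was 1.61 after centring. The Tgfbr3 call was lost after centring (log2 change -0.32, adjusted p = 0.118, the highest of its 12 settings) and after scaling on the 75th percentile (-0.58, 0.0615).

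**Figure D3:**
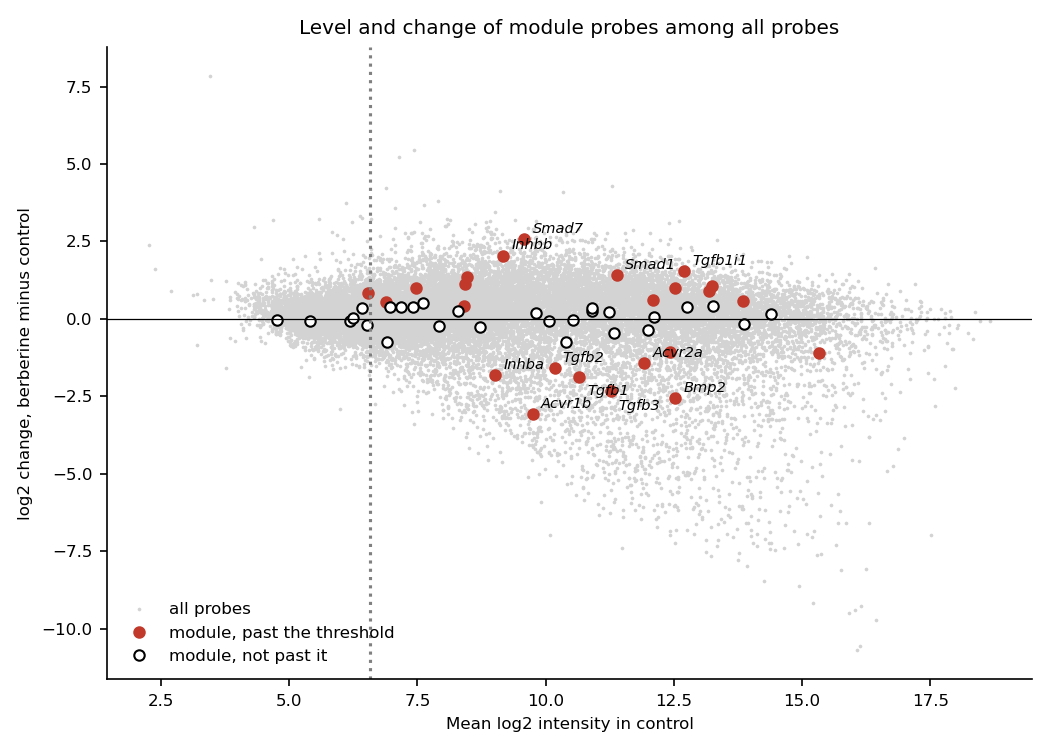
Mean log2 intensity in control (x axis) and log2 change, berberine minus control (y axis), of all 26408 probes in grey and the 52 superfamily probes on top, filled where they passed; the dotted line is the floor of 6.58. Superfamily changes lie between -3.07 and 2.59, while all probes span -10.70 to 7.85.

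SMAD genes passed as higher at 5 of 8 (62.5%, against 30% of all named genes) and as lower at 0 (against 18.2%), after quantile normalization. Those 5 include Smad5, whose probes disagree, and Smad9, which turned in the deposited values. By unadjusted p of the same fit, 7 of 8 were under 0.05, Smad6 among them with a negative change. That mark was also met by 27 of the 49 superfamily genes and 10146 of 17734 named genes, so it sets few genes apart. Smad7, an inhibitory SMAD that TGF-beta is known to induce, read 12.20 and 12.14 with berberine, against 9.53 and 9.64 in control. It rose 6.0-fold (log2 change 2.59, SE 0.12, adjusted p = 0.000233), the largest rise of the superfamily, and passed under all 12 other settings with changes of 2.27 to 2.83. Smad6, the inhibitory SMAD of BMP signalling, read 9.63 and 9.69 with berberine, against 10.69 and 10.10 in control. Its change of -0.73 (SE 0.22, adjusted p = 0.0503) missed the threshold, and it passed under 7 of 12 other settings, at adjusted p from 0.00735 to 0.228. Both berberine arrays lay above the control arrays for Smad7 and below them for Smad6.

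Smad3, which carries TGF-beta and activin signals, read 14.34 and 14.24 with berberine, against 13.05 and 13.43 in control, and rose 2.07-fold (log2 change 1.05, SE 0.17, adjusted p = 0.00756). Smad1, which carries BMP signals, read 12.85 and 12.78 with berberine, against 11.63 and 11.15 in control, and rose 2.68-fold (log2 change 1.42, SE 0.20, adjusted p = 0.00454). The berberine arrays lay close together for both genes and above both control arrays. Both calls were lost without berberine replicate 1 or berberine replicate 2, while the size of the changes stayed close. The log2 changes were then 1.00 and 1.10 for Smad3 and 1.38 and 1.46 for Smad1. After centring on the median the Smad3 change was 1.77.

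Smad5 and Smad9, the other BMP-side SMADs, had smaller changes, and neither call held under all settings. The brighter Smad5 probe read 12.63 and 12.75 with berberine, against 11.95 and 12.21 in control, and rose 1.52-fold (adjusted p = 0.0273). The dimmer one read 10.85 and 10.90 with berberine, against 11.52 and 11.14 in control, a change of -0.46 short of the threshold (adjusted p = 0.083). Averaging them left a change of 0.07 (adjusted p = 0.65, the highest of the 12 settings), so the array gives no direction for Smad5. Its call was also lost in the deposited values and without either berberine array or control replicate 1. Smad9 read 8.80 and 8.86, against 8.45 and 8.37 in control, with a change of 0.42 (adjusted p = 0.0453) that kept its call under only 4 of 12 other settings, was lost without each of the 4 arrays and turned to -0.20 in the deposited values.

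Smad2, the partner of Smad3 on the TGF-beta side, did not pass at either probe, with changes of 0.37 (adjusted p = 0.124) and 0.34 (adjusted p = 0.175). The brighter probe passed after centring (1.06, adjusted p = 0.0107) and after scaling on the 75th percentile (0.80, 0.0272), with 0.0107 to 0.427 over the settings tried. It read 13.01 and 13.23 with berberine, against 12.88 and 12.61 in control. Smad4, the common partner, read 13.66 and 13.69 with berberine, against 13.34 and 13.21 in control. Its change of 0.41 (SE 0.12, adjusted p = 0.0511) missed the threshold and passed under 7 of 12 other settings, at adjusted p from 0.00548 to 0.215.

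**Figure D4:**
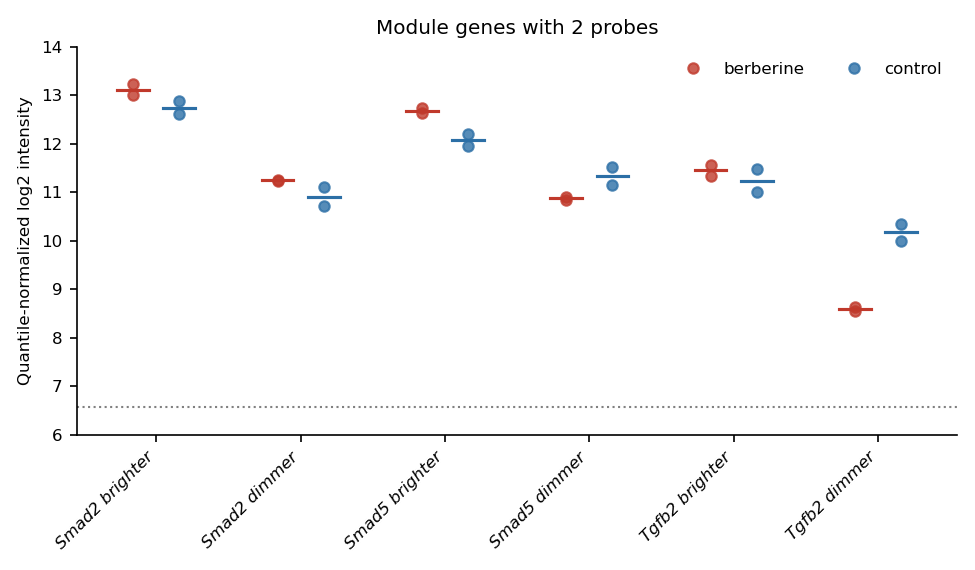
Quantile-normalized log2 intensity on each array at the brighter and dimmer probe of Smad2, Smad5 and Tgfb2, berberine (red) left of control (blue), with marks at group means and the floor of 6.58 dotted. The Smad2 probes gave similar changes (0.37 and 0.34), while the Smad5 (0.60 and -0.46) and Tgfb2 probes (0.22 and -1.58) disagreed in sign.

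The name rule also took in 4 genes that are neither ligands, receptors nor SMADs, and all 4 were higher (against 30% of all named genes). Tgfb1i1, which encodes the focal adhesion protein Hic-5, read 14.17 and 14.33 with berberine, against 12.81 and 12.59 in control, and rose 2.93-fold (log2 change 1.55, SE 0.15, adjusted p = 0.00145), a call kept under all 12 other settings. Bmp1, a metalloprotease that processes procollagen and cleaves the BMP antagonist chordin, read 13.53 and 13.52 with berberine, against 12.59 and 12.46 in control, and rose 2.0-fold (adjusted p = 0.00336). Its call was lost without berberine replicate 1 (0.0537) or 2 (0.052), and its change was 1.67 after centring. Tgfbrap1, a trafficking protein that binds TGF-beta receptors, rose 1.5-fold (adjusted p = 0.0236), and Bmp2k, a kinase named for its induction by BMP2, rose 1.47-fold (adjusted p = 0.0426). Both of these calls were lost without either berberine array or control replicate 1, and Bmp2k also in the deposited values and after scaling on the 75th percentile. Without these 4, the counts were 11 higher and 8 lower of 45 genes (24.4% and 17.8%, against 30% and 18.2% of all named genes).

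Other genes of the pathway were listed by function under 114 names, among them Arkadia, a second name of Rnf111, and 100 genes were measured. Of these 41% were higher and 24% lower, against 30% and 18.2% of all named genes, and their median change was 0.30, against 0.20. The lists were chosen with earlier results of these data known, so these shares are no independent comparison. Under the floor in both groups were 7 of the 100 genes, against 2681 of 17734 named genes, which also sets the 2 apart. The counts of 41 and 24 became 16 and 14 without berberine replicate 1, and 19 and 13 without berberine replicate 2. In the deposited values 25 were higher and 19 lower.

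Extracellular regulators moved both ways, with 9 of 26 higher and 6 lower (34.6% and 23.1%, against 30% and 18.2% of all named genes) and a median of 0.22. Nbl1, a BMP antagonist also called DAN, read 8.59 and 8.56 with berberine, against 11.50 and 11.75 in control, and fell 8.30-fold (log2 change -3.05, SE 0.14, adjusted p = 0.000222). Chrdl1, a chordin-like BMP antagonist, read 9.95 and 9.99, against 12.88 and 12.80 in control, and fell 7.29-fold at its brighter probe (adjusted p = 0.000171). Its other probe fell 2.31-fold (adjusted p = 0.0127), and averaging them gave a log2 change of -2.04 in place of -2.86. Dcn, the matrix proteoglycan decorin, which binds TGF-beta, fell 7.84-fold at its brighter probe (adjusted p = 0.00026) and at least 649-fold at the other, where berberine was under the floor. Its probes thus differ in size but not in direction, with -6.24 when averaged in place of -2.97. Tll1, a chordin-cleaving protease, fell 4.97-fold (adjusted p = 0.000303). Among BMP antagonists the directions differed: Chrd (chordin), Grem1 (gremlin) and Bmper, named after their values were seen, rose 2.60-fold, 2.85-fold and 2.73-fold (adjusted p = 0.00485, 0.0039 and 0.00648). Fst, the activin antagonist follistatin, also picked afterwards, had a change of -0.40 short of the threshold (adjusted p = 0.0569).

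Coreceptors and decoy receptors had 6 of 13 higher and 2 lower (46.2% and 15.4%, against 30% and 18.2% of all named genes). The median change was 0.30, against 0.20. Rgmb, a BMP coreceptor of the repulsive guidance family, read 7.52 and 7.23 with berberine, against 10.29 and 9.95 in control, and fell 6.71-fold (adjusted p = 0.000577). Cd109, a surface protein that restrains TGF-beta signalling, rose 2.15-fold (adjusted p = 0.0032), and Neo1, a receptor for guidance molecules of the Rgmb family, rose 2.01-fold (adjusted p = 0.0033). The other Cd109 probe had a change of 0.02 (adjusted p = 0.936), and averaging gave 0.56. The Cd109 call was lost without either berberine array, and that of Neo1 without berberine replicate 1 and in the deposited values. Amhr2, the receptor of anti-Müllerian hormone, passed while under the floor in both groups, so no fold is given, and its call was lost without each of the 4 arrays. Bambi, a decoy receptor picked after its value was seen, had a change of 0.03 (adjusted p = 0.898).

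Intracellular regulators were higher at 15 of 27 genes and lower at 4 (55.6% and 14.8%, against 30% and 18.2% of all named genes), with a median change of 0.80. Skil, the SMAD corepressor SnoN, read 12.18 and 12.17 with berberine, against 9.65 and 9.94 in control, and rose 5.20-fold (log2 change 2.38, SE 0.15, adjusted p = 0.000489). Smurf1, a ubiquitin ligase for SMADs and receptors, read 13.79 and 13.82 with berberine, against 11.92 and 12.16 in control, and rose 3.40-fold (adjusted p = 0.000892). Tgif1, a SMAD corepressor, rose 3.32-fold (adjusted p = 0.00104). Hipk2, a nuclear kinase, read 10.89 and 10.99 with berberine, against 13.46 and 13.89 in control, and fell 6.67-fold (adjusted p = 0.000568). Ski and Pmepa1, further negative regulators named after their values were seen, rose 2.86-fold and 2.43-fold (adjusted p = 0.00143 and 0.00161). The rises of this list were not limited to negative regulators. Map3k7, Ncoa3, Rnf111 and Ep300, picked likewise, rose 6.13-fold, 2.71-fold, 2.54-fold and 2.45-fold. Crebbp, Foxh1 and Fkbp1a passed as lower (adjusted p = 0.00731, 0.0218 and 0.0219), with the berberine mean of Crebbp under the floor. Ppm1a, Strap and Ube2o did not pass, with log2 changes of -0.04, 0.19 and -0.22.

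Known target genes went both ways, with 11 of 34 higher and 12 lower. These are 32.4% and 35.3%, against 30% and 18.2% of all named genes, so the higher share lay near the background. The median change was -0.16, against 0.20. Id1 and Id2, inhibitors of bHLH factors that BMP signals induce, fell 6.88-fold and 5.26-fold (adjusted p = 0.000215 and 0.000354). Id1 read 12.92 and 12.82 with berberine, against 15.72 and 15.58 in control. Tagln, an actin-binding protein that TGF-beta induces, read 8.67 and 8.59 with berberine, against 6.01 and 6.10 in control, a rise of at least 4.13-fold with the control under the floor (adjusted p = 0.00024). Fn1, the matrix protein fibronectin, also a TGF-beta target, fell at least 326-fold at its probe (adjusted p = 5.77e-05), with berberine under the floor. Tagln and Fn1, both counted as TGF-beta targets, went opposite ways. Ccn2 and Tgfbi, further TGF-beta targets named after their values were seen, rose 5.55-fold and 4.71-fold (adjusted p = 0.000394 and 0.000376). Id3 and Id4, picked likewise, fell 4.88-fold and 2.24-fold (adjusted p = 0.00067 and 0.00325). These picks do not stand for the whole list. Tnc, Jun, Col3a1, Lox, Msx1, Atoh8 and Snai2 also passed as lower, with log2 changes of -1.67, -1.65, -0.84, -0.77, -0.77, -0.73 and -0.62. Itga5, Klf10, Col1a1 and Acta2 passed as higher, with 2.96, 1.68, 1.49 and 1.22. So did Runx2, Snai1, Dlx5 and Col1a2, with 0.72, 0.70, 0.63 and 0.59.

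**Figure D5:**
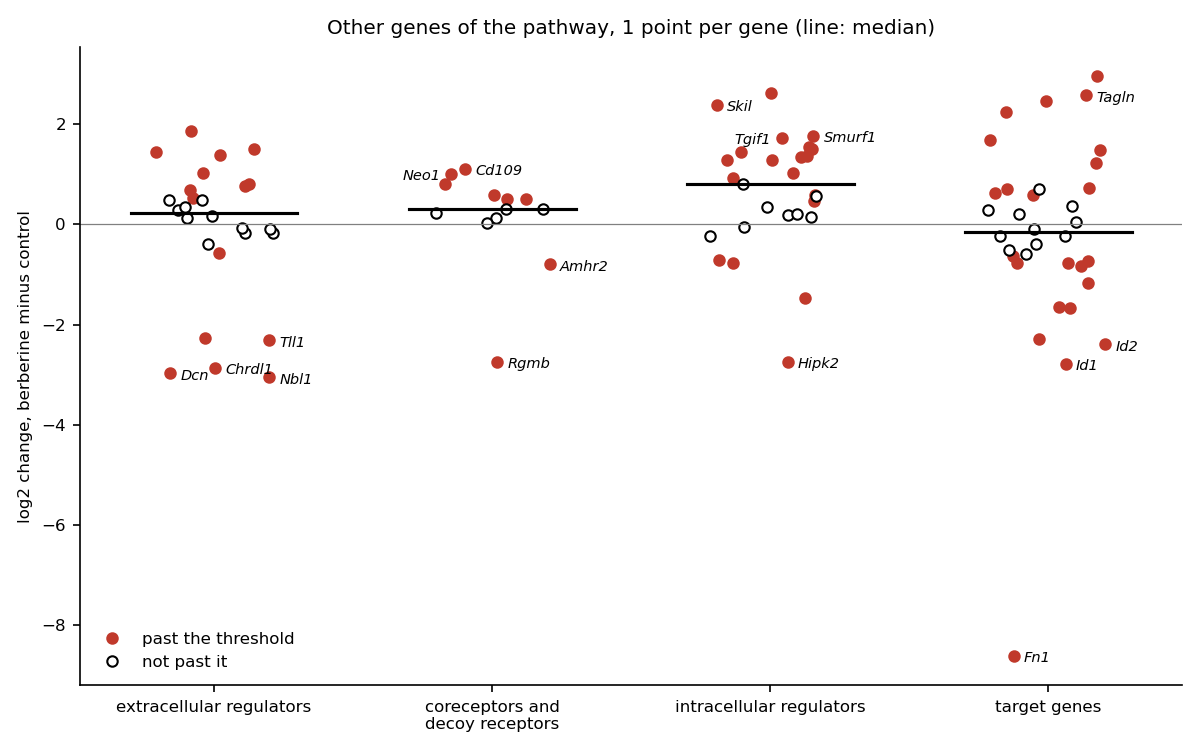
Log2 change (berberine minus control) of 100 further pathway genes, 1 point per gene in 4 lists, filled where they passed an adjusted p of 0.05, with the list median as a line. Points of the intracellular regulators centre on 0.80, and Fn1 lies lowest at -8.61.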

How the data were processed

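Linear probe intensities of 4 1-colour Cy5 arrays, as deposited by the authors in whole numbers, were the only values used; no source used here names the scanner, background correction or scaling. Leaving out 15 probes with a value of 0 or less, log2 intensities of 26408 probes were quantile-normalized, since array medians differed by 0.812 on log2. Berberine was compared with control in limma 3.58.1 (R 4.3.3; lmFit, eBayes; 2 residual and 2.89 prior degrees of freedom), with Benjamini-Hochberg adjustment over all probes. For 2 against 2 arrays the smallest two-sided p of an exact permutation test is 0.33. The number of arrays limits the precision.

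Probes were named through the platform's annotation: 20377 had 1 symbol, 0 several and 6046 none here; 18213 symbols matched RefSeq's current symbols and 2126 an older one. A gene was counted by the probe with the highest mean. "At least" marks folds against the floor. Members, lists and rules were chosen with earlier results of these data known. Named were members at or above the floor in a group, each probe of genes with several, and the 4 smallest p-values of each further list. Alternatives were other scalings, a replicate block, an intensity trend with robust prior, log2(value + 16), dim probes left out, probes averaged, each array left out, and a 2-fold limit besides. On simulated data with few changed probes the fit recovered the planted sizes but called only part of the larger changes and none of the smaller ones. Promoters came from RefSeq (GRCm38.p6). Same-numbered samples did not deviate together across probes (r = 0.00352).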

Additional observations from a re-analysis of the deposited data

How the results depend on the processing

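Of the 23 superfamily calls, 9 passed under all 12 other settings that were run per gene, 14 were lost under at least 1 and 1 of these, Smad9, turned (-0.20 in the deposited values). Across all probes, 11838 passed, 6687 in the deposited values, 5806 with at least a 2-fold change in addition and 4339 to 10772 when each array was left out. Superfamily rises numbered 15, with 8 in the deposited values, 9 with the 2-fold limit and 4 to 14 with an array left out; falls numbered 8 and stayed between 7 and 10. Among the further pathway genes 41 were higher, with 25 in the deposited values, 26 with the 2-fold limit and 16 to 36 with an array left out, and 24 were lower, with 15 with the 2-fold limit and 13 to 23 with an array left out. With the replicate block, 15 superfamily genes were higher and 10 lower, and 12760 of all probes passed. When an array was left out, the lone array was assumed to vary like the other group. The control arrays differed more from each other than the berberine arrays did. Their median absolute differences were 0.26 and 0.0884, over probes above log2 10 in control. Without a berberine array the spread thus came from the control pair alone. Genes without a call changed sign as follows, and the cause was not tested. In the deposited values the log2 change was -0.0385 for Tgfb2, -0.32 for Inhbe, -0.10 for Bmp8a, -0.38 for Gdf5 and -0.0882 for Acvr2b. After centring on the median it was 0.0698 for Inhbc, 0.55 for Acvr1 (adjusted p = 0.0399) and 0.10 for Acvrl1, and after scaling on the 75th percentile -0.0116 for Inhbe, -0.071 for Gdf5 and 0.29 for Acvr1. With probes averaged, Tgfb2 was at -0.68 and passed. With each array left out in turn, the log2 change ran from -0.0122 to 0.45 for Tgfb2, -0.24 to 0.19 for Inhbc, -0.16 to 0.96 for Bmp10, -5e-04 to 0.14 for Bmp4, -0.0657 to 0.83 for Bmp5, -0.58 to 0.10 for Gdf11, -0.44 to 0.84 for Gdf5 and -0.87 to 0.18 for Acvrl1. Signal over background limits what can be read from 5 superfamily genes, which were under the floor in both groups.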
